A study of Mus musculus with 14 samples.

Results

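The genes described here encode TAM receptors and other parts of the machinery by which a phagocyte finds, binds and engulfs dying cells: Mertk, Axl, Gas6, Pros1, Mfge8, Timd4, Elmo1, Gulp1 and Megf10. They were taken by symbol, and all 9 were found among the 14084 genes of the count table. RNA was sequenced from microglia sorted by flow cytometry out of the cerebral cortex of C57BL/6 mice with a labelled age of 8 to 10 weeks, in 14 libraries. In the 12 stroke libraries the distal middle cerebral artery had been tied off for good and both common carotid arteries had been closed for 7 min. These libraries fall into groups of 2 at day 1, 3, 7, 21, 60 and 90 after the operation. The 2 sham libraries came from mice that had only a lesion of the skull surface, and the time at which they were sampled is not given in the sources used here. The sort markers and gate, the sex of the mice and whether both libraries of 1 group stem from different mice are also not given. A p-value here therefore measures only how far such libraries spread, which may be technical. The labels give the same strain, tissue and age for sham and stroke libraries. At day 90 this cannot be the age at sampling, since 90 days exceed 10 weeks. Whether it is the age at the operation is not given. Age at sampling and time after stroke therefore cannot be told apart here.

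A dying cell turns the lipid phosphatidylserine to its outer surface. Gas6 and protein S, the product of Pros1, bind this lipid with a domain rich in carboxylated glutamates that needs vitamin K, and bind with their other end to the TAM receptor tyrosine kinases Tyro3, Axl and Mertk. Mfge8 is a secreted bridge of another kind: it binds phosphatidylserine and, through an RGD motif, the integrins that contain the alpha V chain. Timd4 binds phosphatidylserine directly as a tether. Elmo1 acts inside the cell, where with a Dock protein it activates Rac and thereby the actin cytoskeleton, Gulp1 is an adaptor, and Megf10 is a receptor known for engulfment by astrocytes. In the brain, Mertk and Axl are known from microglia and other macrophages, though not from these alone.

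The promoters of 4 genes are shown because Mertk, Axl, Gas6 and Mfge8 are those whose level differed between sham and stroke libraries in the results that follow. Each run holds 250 bases before and 50 bases after a gene's start in RefSeq on build GRCm38.p6, in the direction of transcription, with GC boxes (GGGCGG on either strand) in capitals. The deposited counts were made on build mm9, so these coordinates belong to the RefSeq promoters and not to the counts.
Mertk, chr2:128698665-128698964, plus strand: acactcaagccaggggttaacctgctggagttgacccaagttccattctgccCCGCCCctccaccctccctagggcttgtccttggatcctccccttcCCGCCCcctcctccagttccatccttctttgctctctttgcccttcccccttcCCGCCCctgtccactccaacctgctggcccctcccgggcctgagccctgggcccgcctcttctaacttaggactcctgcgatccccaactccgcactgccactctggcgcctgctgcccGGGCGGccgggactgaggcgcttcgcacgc
Axl, chr7:25788684-25788983, minus strand: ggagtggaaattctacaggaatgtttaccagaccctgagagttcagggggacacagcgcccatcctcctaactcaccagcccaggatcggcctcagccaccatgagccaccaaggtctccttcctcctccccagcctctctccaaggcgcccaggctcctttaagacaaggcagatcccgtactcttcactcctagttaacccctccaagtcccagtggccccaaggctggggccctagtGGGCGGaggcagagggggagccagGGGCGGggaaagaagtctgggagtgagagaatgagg
Gas6, chr8:13494486-13494785, minus strand: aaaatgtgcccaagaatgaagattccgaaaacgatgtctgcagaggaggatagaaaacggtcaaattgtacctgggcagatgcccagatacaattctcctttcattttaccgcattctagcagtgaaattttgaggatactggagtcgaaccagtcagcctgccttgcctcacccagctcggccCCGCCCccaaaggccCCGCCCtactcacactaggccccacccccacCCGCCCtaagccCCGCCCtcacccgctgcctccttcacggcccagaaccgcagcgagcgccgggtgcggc
Mfge8, chr7:79149011-79149310, minus strand: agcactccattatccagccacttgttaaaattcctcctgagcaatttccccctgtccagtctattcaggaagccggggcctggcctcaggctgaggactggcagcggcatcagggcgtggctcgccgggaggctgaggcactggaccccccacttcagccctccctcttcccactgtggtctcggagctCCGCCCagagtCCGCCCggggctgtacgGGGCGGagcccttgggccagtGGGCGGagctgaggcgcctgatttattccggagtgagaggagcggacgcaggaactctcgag
The promoter of Mertk holds 4 GC boxes, that of Axl 2, that of Gas6 4 and that of Mfge8 4. The promoter of Pros1, which is not printed, holds 5. Of 32851 mouse promoters of the same length, 35.7% hold at least 1. The bases G and C make up 58.3% to 66.7% of these 5 promoters, beside a median of 52.7% over all promoters. The shares over all promoters were not matched for base content. None of these 5 promoters holds the E-box CACGTG, the AP-1 motif TGANTCA, the PU.1 motif GAGGAAGT or the TATA motif TATAAA on either strand, which 7.2%, 7.8%, 3.2% and 13.6% of all promoters hold. The first of 2 promoters listed for Elmo1 holds 1 PU.1 motif, which begins 38 bases after the start, beside 3 GC boxes and 1 TATA motif. RefSeq entries were matched for 8 of the 9 genes, and a motif match describes letters only.

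Total counts ran from 15254983 to 28758420 in the libraries numbered 1 and from 100625099 to 191692779 in those numbered 2, so that number 2 was 6.60 to 9.19 times as deep in each group. The labelled cell type was checked against markers. The summed level of 9 microglia markers (among them Tmem119, P2ry12 and Sall1) was 542 and 164 CPM (counts per 1000000 counts of the library) in the sham libraries. It was 495 CPM in replicate 2 of day 1 and 748 to 7192 CPM in the other stroke libraries. The summed level of 11 neutrophil markers went the other way, 18190 and 31037 CPM in sham against 248 to 6915 CPM after stroke, and that of 3 erythroid markers was 200 and 207 CPM against 0 to 4.43 CPM. The sum of 8 monocyte markers was 5584 and 11965 CPM in sham and 9667 CPM in replicate 2 of day 1. It was 503 to 4290 CPM in the other stroke libraries. Replicate 2 of day 1 also had 5956 CPM of neutrophil markers. Replicate 1 of day 21 had the most neutrophil signal of the stroke libraries, 6915 CPM. It also had 3577 CPM of monocyte and 2037 CPM of dendritic cell markers, beside 2890 CPM of microglia markers. Endothelial markers summed to 49.2 and 1498 CPM in sham and 20.4 to 310 CPM after stroke. In every group they were higher in replicate 2. Over all groups they ran from 20.4 to 65.6 CPM in replicate 1 and from 88.5 to 1498 CPM in replicate 2. The sham libraries, replicate 2 of day 1 and replicate 1 of day 21 thus go against their label in part. Every comparison with sham that follows carries the difference in cell content between sham and stroke libraries. In such bulk samples, fewer cells of a type and less RNA per cell cannot be told apart. The comparisons among stroke times do not use the sham libraries for the difference.

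Across the 6 times, Mertk and Gas6 were higher than in sham at every time, Axl from day 3 on, and Mfge8 from day 7 on. These calls come from edgeR's quasi-likelihood test with Benjamini-Hochberg adjustment over 13861 genes, at an adjusted p under 0.05. The number of the 9 genes called higher was 2 at day 1, 3 at day 3, and 4 at each of days 7, 21, 60 and 90. None was called lower by edgeR or by DESeq2, and none of the 54 edgeR tests against sham had an unadjusted p under 0.05 with a lower value. Of all genes tested, 3.18% were called higher and 1.37% lower at day 1, 5.2% and 3.07% at day 3, and 7% and 5.63% at day 7. At day 21 these shares were 5% and 1.44%, at day 60 4.96% and 2.89%, and at day 90 5.12% and 2.73%. The median log2 fold change of the 9 genes was 1.10, 3.72, 2.56, 4.46, 4.26 and 6.10 at the 6 times in order, against 0.04 to 0.15 for all genes tested. The 9 genes include 3 with very few counts, whose fitted fold changes depend on the prior count and enter these medians. All 6 comparisons share the same 2 sham libraries. Pros1, Timd4, Elmo1, Gulp1 and Megf10 passed the threshold at no time.

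**Figure D1:**
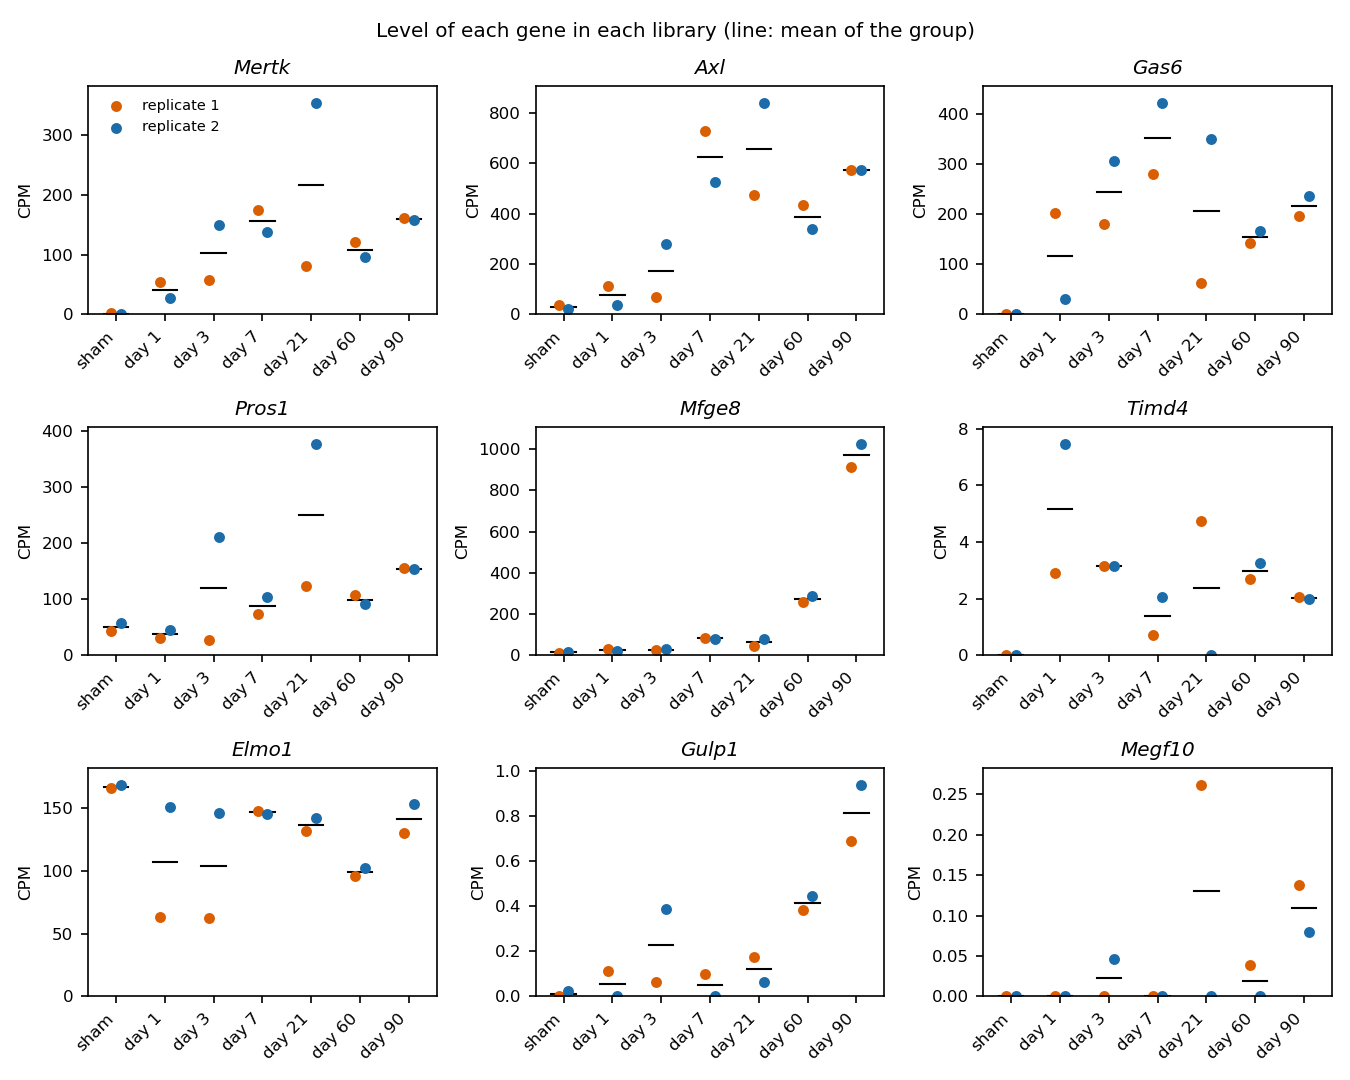
Each panel shows 1 gene, with its level in CPM (TMM-scaled, linear axis from 0) in each of the 14 libraries by group. Points are libraries and lines are group means. Mertk and Gas6 sit near 0 in both sham libraries and above both of them in all 12 stroke libraries, and Mfge8 reaches 914 and 1025 CPM at day 90.

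Mertk, the TAM receptor most closely tied to engulfment of apoptotic cells, was almost silent in the sham libraries, with 1.82 and 0.903 CPM (TMM-scaled, as are all levels of single genes here). It stood at 53.8 and 26.7 CPM at day 1, 57.0 and 149 CPM at day 3, and 174 and 138 CPM at day 7. It then stood at 80.6 and 354 CPM at day 21, 121 and 95.4 CPM at day 60, and 161 and 157 CPM at day 90. All 12 stroke libraries were above both sham libraries, and the lowest of them, replicate 2 at day 1, was still far above the higher sham value. The group means were 29.6 times the sham mean at day 1, 160 times at day 21 and 117 times at day 90. The fitted log2 fold change was 4.91 ± 0.80 (SE) at day 1, with an edgeR adjusted p of 0.00687. It was 7.35 ± 0.89 at day 21 with an edgeR adjusted p of 0.0016, and 6.90 ± 0.88 at day 90 with one of 0.00168. The other times lay between, from 6.27 at day 3 to 6.87 at day 7. The day 1 call was lost when either sham library was left out, with edgeR adjusted p-values of 0.0561 without replicate 1 and 0.0886 without replicate 2. Without replicate 2 of day 21 the day 21 log2 fold change was 5.92, and without replicate 2 of day 3 the day 3 value was 5.42. Without sham replicate 1 the values at days 3, 7, 21 and 90 rose to 6.88, 7.47, 7.97 and 7.53. The calls at the other 5 times held without any 1 library, with the sham library left out each time giving the highest adjusted p (0.0284 to 0.0412).

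Within the stroke groups, the 2 libraries of day 21 differed most in Mertk, replicate 2 being 4.39 times replicate 1, and those of day 90 least, at 0.976 times. In order of mean level day 21 came first and was followed by day 90, day 7, day 60, day 3 and day 1. The ranges of day 21, day 90 and day 7 overlapped from one to the next, as did those of day 60 and day 3. Among the stroke times alone Mertk was not called: the edgeR adjusted p was 0.485 for any difference and 0.312 for the mean of days 21, 60 and 90 against the mean of days 1, 3 and 7 (log2 difference 0.84).

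The summed microglia markers moved with Mertk in part: they were low in the sham libraries and in replicate 2 of day 1, and highest in replicate 2 of day 3 and of day 21 (5367 and 7192 CPM). Replicate 2 of day 21 was also the highest library in Mertk, while at day 7 replicate 2 had slightly more marker signal than replicate 1 (3235 and 3166 CPM) and less Mertk. Set against these markers, Mertk had 3.63 and 4.61 counts per 1000 marker counts in sham and 22.1 to 118.5 in the stroke libraries, so the ranges stayed apart. Gas6 had 0.847 and 4.91 in sham against 29.3 to 178 after stroke, likewise apart. For Axl the ranges overlapped, 75.0 and 113 in sham against 31.1 to 431. These ratios rest on markers that were themselves called higher after stroke (7, 7 and 8 of 9 at days 3, 7 and 21), and what part the marker content has in the rise of any of these genes was not tested.

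**Figure D2:**
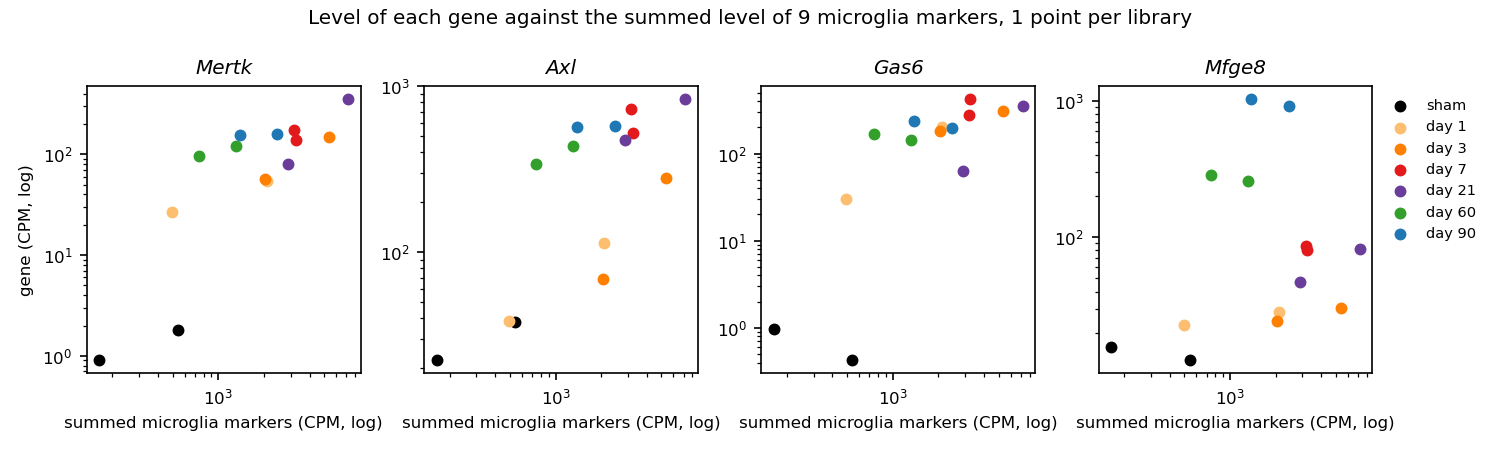
Each panel plots the level of 1 gene (CPM, log axis) against the summed level of 9 microglia markers (CPM, log axis), with 1 point per library coloured by group. For Mertk and Axl the sham libraries lie at the lower left (for Axl together with replicate 2 of day 1) and replicate 2 of day 21 at the upper right, while Mfge8 is highest in the day 90 libraries, where the markers sum to 2450 and 1381 CPM.

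Axl, the TAM receptor known to be raised by inflammatory signals, was not silent in sham: it stood at 37.6 and 22.2 CPM there. It was 113 and 38.2 CPM at day 1, 68.5 and 279 CPM at day 3, and 726 and 526 CPM at day 7. Later it stood at 473 and 839 CPM at day 21, 436 and 340 CPM at day 60, and 574 and 572 CPM at day 90. Replicate 2 of day 1 barely exceeded the higher sham library, whereas all 8 libraries from day 7 on lay at 340 CPM or more. The fitted log2 fold change was 1.34 ± 0.68 at day 1 (edgeR adjusted p 0.275) and 2.54 ± 0.71 at day 3 (0.0473). Day 7 gave 4.39 ± 0.77 (edgeR adjusted p 0.00613) and day 21 gave 4.46 ± 0.77 (0.00799). Day 60 gave 3.70 ± 0.74 (edgeR adjusted p 0.0143) and day 90 gave 4.26 ± 0.76 (0.00869).

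The day 3 call of Axl was the least firm of all: leaving out 9 of the 14 libraries in turn ended it. Without replicate 2 of day 3 its log2 fold change fell to 1.20, with an edgeR adjusted p of 0.337. Without sham replicate 1 or 2 the adjusted p was 0.148 or 0.202, and without replicate 1 or 2 of day 7, 60 or 90 it was 0.0674 to 0.0706. Relative log expression scaling gave 0.0512, and a test against a minimum fold change of 1.5 gave 0.072. Without sham replicate 2 the Axl call was also lost at days 7, 21, 60 and 90, with adjusted p-values of 0.0589, 0.104, 0.0966 and 0.0853. Without sham replicate 1 it was lost at days 21, 60 and 90 (0.0585, 0.0906 and 0.0551), and without replicate 1 or 2 of day 60 at day 60 (0.0625 and 0.0505). The fold change kept its sign in each of these fits, and the log2 value at days 7 to 90 stayed between 3.37 and 4.96.

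Axl and Mertk can be set side by side per length of exon. Per kilobase, Axl stood at 20.8 and 24.6 times Mertk in the sham libraries and at 1.21 to 5.89 times in the stroke libraries, so Axl was the more abundant transcript in every library and the excess was smaller in every stroke library. Mertk and Axl varied together over the libraries: Pearson's r of their log2 CPM was 0.878 over 14 libraries and 0.903 over the 12 stroke libraries, as a description of libraries that share depth and cell content. For the mean of days 21, 60 and 90 against the mean of days 1, 3 and 7, Axl had a log2 difference of 1.38 ± 0.39 and an edgeR adjusted p of 0.0899. Over the alternatives this p ran from 0.0103 to 0.241. DESeq2 and limma-voom called the difference (adjusted p 0.0103 and 0.0374), as did the edgeR fit without replicate 1 of day 1 (0.0488) or without replicate 2 of day 3 (0.0357).

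**Figure D3:**
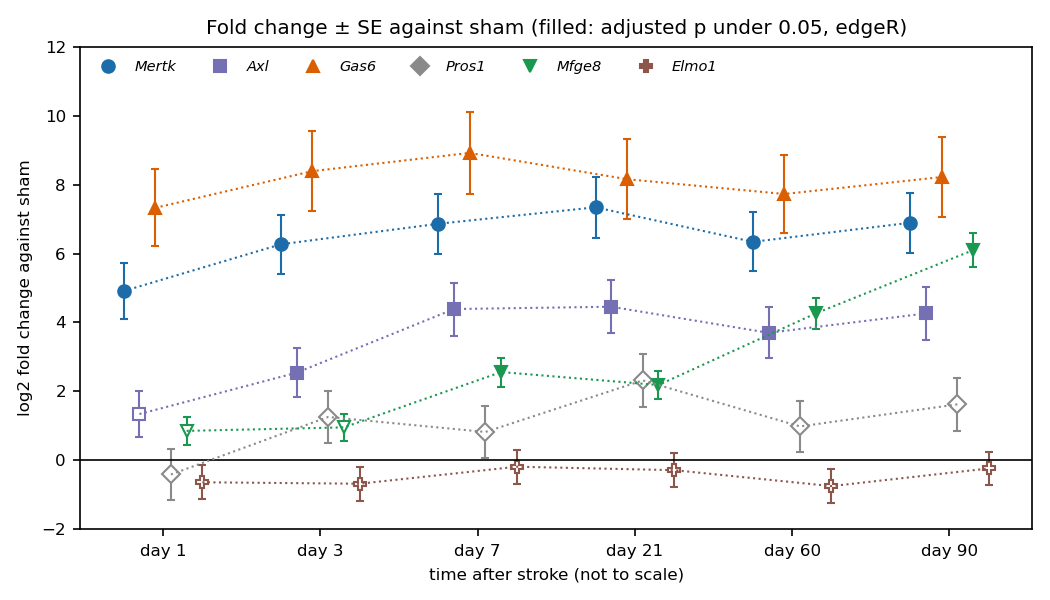
The plot shows the log2 fold change against sham with its SE (edgeR) for 6 of the genes at each time, the times spaced evenly. Filled symbols have an adjusted p under 0.05. Gas6 and Mertk are filled at all 6 times, Axl from day 3, Mfge8 from day 7, and Pros1 and Elmo1 at none.

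Gas6, the bridging ligand that binds all TAM receptors, was nearly absent from sham and plain in every stroke library. It stood at 0.424 and 0.963 CPM in sham, and at 202 and 30.3 CPM at day 1, 179 and 306 CPM at day 3, and 280 and 421 CPM at day 7. It stood at 62.6 and 350 CPM at day 21, 141 and 165 CPM at day 60, and 195 and 236 CPM at day 90. Every stroke library was above both sham libraries, and the stroke times overlapped with their neighbours in the order of mean level throughout. The group means were 167 times the sham mean at day 1, 505 times at day 7 and 311 times at day 90. The log2 fold change was 7.33 ± 1.12 at day 1 (edgeR adjusted p 0.00538), 8.92 ± 1.19 at day 7 (0.002) and 8.22 ± 1.16 at day 90 (0.00335). The libraries of a group differed most at day 1, where replicate 1 was 6.65 times replicate 2, and at day 21, where replicate 2 was 5.60 times replicate 1.

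The Gas6 call at day 1 was lost without sham replicate 1 or 2 (edgeR adjusted p 0.0643 and 0.0618), that at day 21 without sham replicate 2 (0.0529) and that at day 60 without sham replicate 1 (0.0527). Without replicate 1 of day 1, the day 1 log2 fold change was 5.40, and without replicate 1 or 2 of day 21 the day 21 value was 8.96 or 6.44. Without sham replicate 2 the values at the 6 times lay higher, between 8.09 and 9.68. Among the stroke times Gas6 was not called, with an edgeR adjusted p of 0.871 for any difference. Its log2 difference between the later and the earlier 3 times was -0.18, and it changed sign to 0.47 without replicate 1 of day 1. In the annotation used here (GRCm38), exons of Gas6 share 34 bases with Tmem255b on the other strand, and since the strand setting of the counting is not given, reads there cannot be told apart.

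Pros1, whose product protein S is the other TAM ligand, was measured in all groups at a level that did not set the stroke times apart by the test. It stood at 43.2 and 57.0 CPM in sham, 30.1 and 45.1 CPM at day 1, 27.9 and 211 CPM at day 3, and 73.2 and 104 CPM at day 7. It stood at 123 and 376 CPM at day 21, 107 and 91.0 CPM at day 60, and 155 and 153 CPM at day 90. Both libraries of each group from day 7 on lay above both sham libraries, while those of days 1 and 3 overlapped with sham. The largest log2 fold change was 2.32 ± 0.78 at day 21, with an edgeR adjusted p of 0.0964. DESeq2 called it (0.0205), and so did edgeR without replicate 1 or 2 of day 3 (0.0318 and 0.032) or without replicate 1 of day 21 (0.0341). The remaining 5 times had log2 fold changes of -0.41 to 1.62. For the later against the earlier times the log2 difference was 1.09 (edgeR adjusted p 0.232), and 1.78 (0.0278) without replicate 2 of day 3. The day 3 value was 1.26 with both libraries and -0.84 without replicate 2 of day 3, which stood 7.58 times above replicate 1. That library and replicate 2 of day 21 were also those with the highest microglia markers and the highest Pros1.

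Mfge8, the bridge to integrins, was lowest in sham and highest at days 60 and 90. It stood at 12.6 and 15.7 CPM in sham, 28.5 and 22.6 CPM at day 1, 24.5 and 30.2 CPM at day 3, and 85.7 and 81.1 CPM at day 7. After 46.7 and 81.8 CPM at day 21 it stood at 258 and 286 CPM at day 60 and at 914 and 1025 CPM at day 90. Both libraries of every stroke group were above both sham libraries, and days 60 and 90 stood apart from each other and from all earlier times. The mean was 969.8 ± 78.5 CPM at day 90 against 14.1 ± 2.24 CPM in sham (SD, n = 2 each), a ratio of 68.6, and 19.2 at day 60. The log2 fold change was 0.85 ± 0.40 at day 1 and 0.95 ± 0.40 at day 3, neither of them called (edgeR adjusted p 0.242 and 0.157). Day 7 gave 2.56 ± 0.42 (edgeR adjusted p 0.00484) and day 21 gave 2.18 ± 0.42 (0.013). Day 60 gave 4.26 ± 0.46 (edgeR adjusted p 0.000594) and day 90 gave 6.10 ± 0.50 (0.000218). The day 21 call was lost without sham replicate 1 or 2 or without replicate 2 of day 21 (0.089, 0.0959 and 0.0711), and those of days 7, 60 and 90 held without any 1 library.

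Among the stroke times alone, Mfge8 was the only 1 of the 9 genes called. The mean of days 21, 60 and 90 exceeded the mean of days 1, 3 and 7 by 2.73 ± 0.25 on the log2 scale (edgeR adjusted p 0.000209). In this comparison 2.18% of all genes were called higher and 0.649% lower. The median log2 difference was 1.09 for the 9 genes and -0.01 for all genes tested. In the joint test for any difference among the 6 stroke times, Mfge8 had an edgeR adjusted p of 0.000949 and the lowest p of all 13861 genes, of which 0.866% were called. With both sham libraries left out of the fit, the log2 difference was 2.73 (edgeR adjusted p 0.000487) and the joint adjusted p was 0.00347. The call held in each of the other alternatives that give these values, with adjusted p-values of at most 0.0032 for the later against the earlier times and 0.006 for the joint test. In both comparisons the age of the mice at sampling cannot be told apart from the time after stroke.

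Neighbouring times were also compared, a choice made after the data were seen. None of the 45 edgeR tests (9 genes in 5 comparisons) had an adjusted p under 0.05, the lowest being 0.195 for Mfge8 at day 60 against day 21, where the log2 difference was 2.08 ± 0.41. Of all genes, 0.00721% were called between days 3 and 7, 0.0216% between days 21 and 60, and 0% in each of the other 3 comparisons. At an unadjusted p under 0.05, 5 of the 45 tests passed. They were Pros1 at day 3 against day 1, Axl and Mfge8 at day 7 against day 3, and Mfge8 at day 60 against day 21 and at day 90 against day 60.

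Markers of other cells differed between the earlier and the later times as well. The summed mural and fibroblast markers were 20.1 to 161 CPM at days 1 to 7 and 112 to 1434 CPM at days 21 to 90, with 1 of 9 called higher. Within days 60 and 90 they summed to 1434 and 1349 CPM in replicate 2 and to 112 and 219 CPM in replicate 1. That gap was mostly 1 gene, Pdgfrb, with 1352 and 1124 CPM in replicate 2 and 2.91 and 8.00 CPM in replicate 1. Dcn had 49.7 and 49.9 CPM in replicates 1 and 2 of day 60 and 53.2 and 59.3 CPM in those of day 90. Lum was higher in replicate 1 of both days (39.2 and 73.9 CPM, against 12.1 and 38.7 CPM in replicate 2). Mfge8 in replicate 2 was 1.11 and 1.12 times replicate 1. B cell markers were 9.89 to 117 CPM at the earlier and 158 to 451 CPM at the later times (6 of 7 called higher), and T and NK cell markers were 29.7 to 80.8 and 61.1 to 348 CPM (6 of 11). Dendritic cell markers were 119 to 189 CPM at days 1 to 7, 2037 and 33.6 CPM at day 21, 385 and 233 CPM at day 60 and 555 and 391 CPM at day 90, against 177 and 195 CPM in sham, with none of 7 called in this comparison. Of the border-associated macrophage markers 1 of 9 was called higher and 1 lower, and of the monocyte markers 1 of 8 was called lower. Astrocyte markers summed to 17.2 to 82.0 and 13.6 to 92.5 CPM, with none called, and no microglia marker was called in this comparison. What part these other cells have in the Mfge8 values was not tested. Per 1000 microglia marker counts, Mfge8 had 25.03 and 80.2 counts in sham, 6.47 to 45.7 at days 1 to 21, 185 and 257 at day 60, and 471 and 774 at day 90. On that measure it was above both sham libraries at days 60 and 90 only, and not at days 7 and 21.

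The make-up of the 3 bridging transcripts was compared per kilobase of exon. In the sham libraries Pros1 held 68.3% and 68.9% of the sum of Gas6, Pros1 and Mfge8, Mfge8 held 30.8% and 29.6%, and Gas6 0.869% and 1.51%. Gas6 held 77.9% in replicate 1 of day 1 and of day 3, 32.9% and 60.6% in replicate 2 of those days, and 63.7% and 70.4% at day 7. At day 21 Gas6 and Pros1 held 29.3% and 44.5% in replicate 1 and 47.4% and 39.3% in replicate 2. Mfge8 held 58.0% and 59.3% at day 60 and 77.7% and 77.6% at day 90. In these libraries, Pros1 was thus the leading bridge in sham, Gas6 at days 3 and 7, and Mfge8 at days 60 and 90, while the 2 libraries of day 1 and of day 21 gave different leading genes. Shares within a sum show unequal change, not that one gene was steady.

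**Figure D4:**
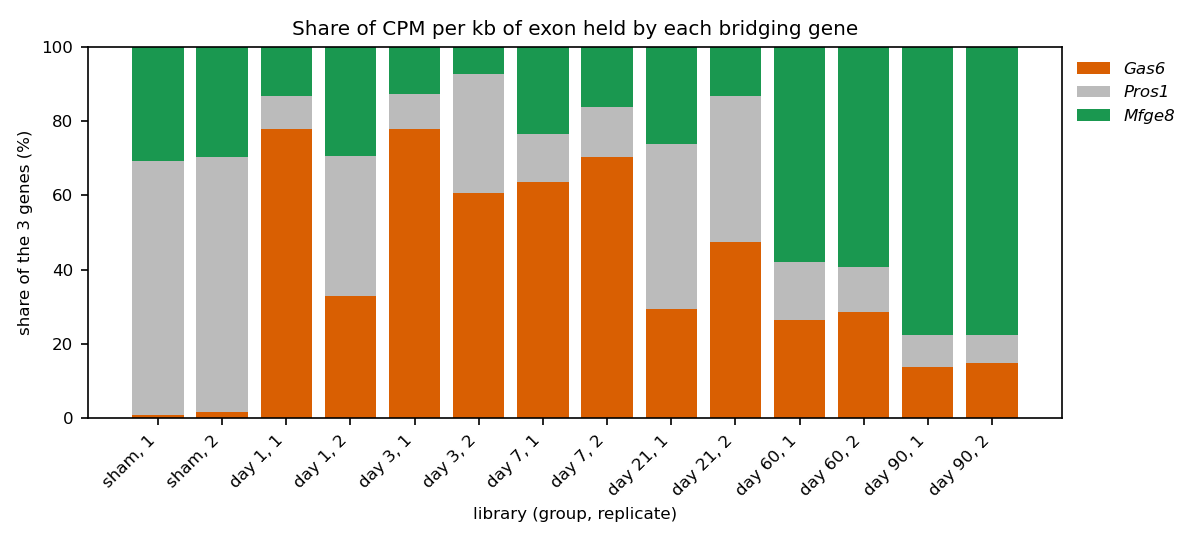
Each bar is 1 library and is divided into the shares (percent) of Gas6, Pros1 and Mfge8 in the sum of their levels per kilobase of exon. Pros1 is the widest part in both sham libraries, Gas6 at days 3 and 7, and Mfge8 at days 60 and 90, at 58.0% to 77.7%.

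Timd4, the phosphatidylserine tether known from resident macrophages, had no count in either sham library. It stood at 2.89 and 7.46 CPM at day 1, 3.16 and 3.17 CPM at day 3, and 0.727 and 2.04 CPM at day 7. At day 21 it was 4.75 CPM in replicate 1 and without a count in replicate 2. It was 2.68 and 3.24 CPM at day 60 and 2.07 and 1.98 CPM at day 90. Against a floor of 3 counts over the sham group, the mean was at least 174 times higher at day 1 and at least 46.5 times higher at day 7. The edgeR adjusted p was 0.0551 to 0.070 at the 6 times, so Timd4 was not called. DESeq2 called it at all 6 times, with adjusted p-values of 6.05e-05 to 0.00112. Without either or both of the day 21 libraries, edgeR called it at all the other 5 times (0.00204 to 0.00293), and without replicate 2 of day 21 at day 21 also (0.00394). Over the alternatives the day 1 adjusted p ran from 6.05e-05 to 0.238. Without replicate 1 of day 21, which leaves a day 21 group at 0, edgeR called Timd4 lower at the later than at the earlier times (adjusted p 0.0106) and in the joint test (0.0452), which it did not do with all libraries (0.95 and 0.995). Replicate 2 of day 21 held 116539697 counts, of which 3 counts would be 0.0257 CPM, for counting error only. The summed markers of border-associated macrophages were also lowest there, at 232 CPM, against 690 and 1441 CPM in sham and 725 to 2317 CPM in the other stroke libraries, and their part in the Timd4 values was not tested.

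Elmo1, the Rac activator downstream of engulfment receptors, was the only 1 of the 9 genes with lower values than both sham libraries in every stroke library, on the TMM scale. It stood at 165 and 168 CPM in sham, 63.5 and 150 CPM at day 1, 62.2 and 146 CPM at day 3, and 147 and 145 CPM at day 7. It stood at 132 and 142 CPM at day 21, 95.7 and 102 CPM at day 60, and 130 and 153 CPM at day 90. The differences did not pass the test: the log2 fold change lay between -0.75 at day 60 (edgeR adjusted p 0.346) and -0.19 at day 7 (0.839). Groups that do not overlap with sham are common here. Over the 6 times in order, 23.0%, 24.5%, 27.6%, 24.1%, 26.9% and 27.2% of all genes tested lay wholly below sham. Wholly above sham lay 22.2%, 28.9%, 32.1%, 27.5%, 33.9% and 36.4% of all genes, and 5, 6, 6, 6, 7 and 8 of the 9 genes. Per 1000 microglia marker counts Elmo1 had 330.0 and 858 in sham and 20.8 to 305 after stroke, and Pros1 had 86.2 and 291 against 12.4 to 116, which overlap. Exons of Elmo1 share 403 bases with the antisense gene Gm32036 in the annotation used here.

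Gulp1, the engulfment adaptor, and Megf10 were at the limit of detection. Gulp1 had 0 and 2 counts in sham and at most 67 counts in a library up to day 21. It stood at 0.382 and 0.444 CPM at day 60 and 0.688 and 0.936 CPM at day 90 (25 and 187 counts), the values at day 90 being the highest of this gene, and replicate 2 of day 3, at 0.389 CPM, lay above the lower library of day 60. No fold is given against so few sham counts. The edgeR adjusted p was 0.383 for the later against the earlier stroke times. Megf10 had no count in 9 of the 14 libraries and at most 16 counts in any, in replicate 2 of day 90. Both genes were tested, since all 9 passed the filter on low counts.

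The shallower libraries numbered 1 and the deeper ones numbered 2 were also compared separately, each with the sham library of its own number, as values with no test. Within replicate 1 the log2 fold change against sham ran over the 6 times from 4.87 to 6.56 for Mertk, 7.12 to 9.28 for Gas6, 0.86 to 4.27 for Axl and 0.97 to 6.18 for Mfge8. Within replicate 2 it ran from 4.85 to 8.57 for Mertk, 4.94 to 8.74 for Gas6, 0.78 to 5.24 for Axl and 0.52 to 6.02 for Mfge8. All 48 values for these 4 genes were above 0. For Pros1 both replicates changed sign between times, from -0.63 to 1.84 and from -0.34 to 2.72.

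Among 7600 genes whose mean log2 CPM reached 3, those whose log2 CPM over the 14 libraries was most like that of each gene are given as a description. For Mertk they were Scamp5, Cadm1 and Apbb2, with Pearson's r of 0.989, 0.976 and 0.975. For Gas6 they were Trim47, Gatm and Vegfb (0.984, 0.983 and 0.981), and for Axl P2rx7, Glt25d1 and Hvcn1 (0.968, 0.966 and 0.965). For Mfge8 they were Dnmt3a, Ivd and Lpl (0.945, 0.943 and 0.940), for Pros1 Fgd2, Asph and Mef2c (0.973, 0.946 and 0.944), and for Elmo1 Cog1, Fbxo18 and Nedd4l (0.969, 0.958 and 0.956). The same r over the 12 stroke libraries was 0.936 for Mertk with Scamp5, 0.874 for Gas6 with Trim47 and 0.929 for Mfge8 with Dnmt3a. Mertk and Gas6 had an r of 0.960 over all libraries and 0.759 over the stroke libraries, where the gap to sham no longer enters. These libraries share depth and cell content, so no p is given.

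Other receptors and bridges for dying cells were followed as a list of 25 genes, all tested. Over the 6 times in order, 7, 9, 10, 8, 9 and 9 were called higher than sham and 2, 1, 2, 1, 0 and 1 lower. Beside this, 3.18% to 7% of all genes were called higher and 1.37% to 5.63% lower. The median log2 fold change of the list was 0.05 to 1.76, beside 0.04 to 0.15 for all genes tested. Without sham replicate 1, 1 to 6 of the 25 genes were called, and without sham replicate 2, 0 to 6. Calls over all genes fell likewise, from 631 to 1751 at the 6 times to 92 to 390 without sham replicate 1 and 68 to 413 without sham replicate 2. The lists that follow are read against the same fall. Among the largest were the chains of C1q, the complement opsonin. C1qb stood at 16.4 and 6.95 CPM in sham, 9102 and 523 CPM at day 1 and 4916 and 3988 CPM at day 90. Its log2 fold change was 8.69 ± 1.36 at day 1 (edgeR adjusted p 0.00586) and 8.58 ± 1.35 at day 90 (0.00471). Stab2, a scavenger receptor that binds phosphatidylserine, had no count in sham and 9.22 and 12 CPM at day 90, at least 356 times higher (edgeR adjusted p 0.0144). From the earlier to the later stroke times Stab2 was called higher and its relative Stab1 lower, Stab1 with a log2 difference of -1.87 ± 0.35 (edgeR adjusted p 0.0139). Itgav, the alpha V chain of the integrins to which Mfge8 binds, was also lower at the later times, with a log2 difference of -1.49 ± 0.36 (edgeR adjusted p 0.0487). It stood at 63.4 and 32.0 CPM in sham, 339 and 91.4 CPM at day 7 and 47.4 and 44.6 CPM at day 90. In the joint test only Cd36, a scavenger receptor for oxidised lipids, was called of this list (edgeR adjusted p 0.021), with 15.1 and 27.5 CPM at day 21 and 1006 and 1102 CPM at day 90.

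Engulfment signalling was followed in 25 genes around Elmo1. Called higher were 1, 1, 2, 3, 1 and 3 at the 6 times in order and called lower 0, 1, 1, 0, 0 and 1, beside 3.18% to 7% of all genes called higher and 1.37% to 5.63% lower. The list's median was -0.77 to -0.52. With either sham library left out, 1 gene was called at each time. Abca1, a lipid exporter raised in cells that engulf, was called at all 6 times, from 11.5 and 4.12 CPM in sham to 182 and 146 CPM at day 1 and 249 and 215 CPM at day 90. Its log2 fold change was 4.40 ± 0.63 at day 1 (edgeR adjusted p 0.00366) and 5.16 ± 0.65 at day 21 (0.0017). Rac2, the Rac form of blood cells, was called lower at days 3, 7 and 90, with 1754 and 1762 CPM in sham against 276 and 298 CPM at day 7. Its log2 fold change at day 7 was -2.62 ± 0.55 (edgeR adjusted p 0.013). Neutrophil markers, also lower after stroke, summed to 748 and 874 CPM at day 60 and 4320 and 3918 CPM at day 90. Rac2 stood at 536 and 511 CPM at day 60 and 425 and 377 CPM at day 90. What part neutrophils have in the Rac2 values was not tested.

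Genes of TAM feedback, shedding and transcriptional control were followed as 19 tested genes. Called higher were 1, 3, 2, 0, 2 and 2 and called lower 2, 2, 1, 2, 1 and 2, with list medians of -0.46 to 0.02. Of all genes tested, 3.18% to 7% were called higher and 1.37% to 5.63% lower. Without sham replicate 1 the total called was 0 or 1, and without sham replicate 2 it was 0 to 2. Nr1h3, which encodes the oxysterol receptor LXR alpha, an activator of Mertk and Abca1 transcription, was called higher at all times but day 21. It stood at 4.43 and 7.09 CPM in sham, 16 and 3.59 CPM at day 21 and 119 and 176 CPM at day 60. What part Nr1h3 has in the Mertk values was not tested. The log2 fold change of Nr1h3 was 4.68 ± 0.72 at day 60 (edgeR adjusted p 0.00405). Pparg, the lipid sensor PPAR gamma known to raise Mfge8 in macrophages, was called lower at day 21 and higher at days 60 and 90. It stood at 29.1 and 35.5 CPM in sham, 8.59 and 4.90 CPM at day 21, 126 and 143 CPM at day 60 and 102 and 94.5 CPM at day 90. Its log2 difference between later and earlier times was 1.44 ± 0.25 (edgeR adjusted p 0.00979), and it was the gene of this list called in the joint test (0.0022). What part Pparg has in the Mfge8 values was not tested. Klf2 was called lower at all 6 times, from -2.92 ± 0.72 at day 1 (edgeR adjusted p 0.0419) to -5.08 ± 0.80 at day 90 (0.0047).

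None of 4 genes of the vitamin K cycle was called by edgeR in any comparison, with list medians of -0.01 to 1.05. Of these 32 tests 9 had an unadjusted p under 0.05, and DESeq2 called 5. Of 19 genes for phosphatidylserine exposure and for signals of dying and healthy cells, 2 to 4 were called higher at each time and none lower, against 1 or 2 called without sham replicate 1 and 0 or 1 without sham replicate 2. Cx3cl1, the ligand of Cx3cr1, was called at all times, with 0 and 0.107 CPM in sham and 12.8 and 5.61 CPM at day 90 (log2 fold change 6.97 ± 1.04, edgeR adjusted p 0.00448). S1pr1, a receptor for the lipid signal made by Sphk1, was also called at all 6 times. Of 21 genes for the digestion of engulfed cells, 4 to 7 were called higher at each time and 1 was called lower, at day 3, against 0 or 1 called with either sham library left out. Of all genes, 3.18% to 7% were called higher. Ctsl, a lysosomal protease, stood at 51.2 and 84.5 CPM in sham and 2168 and 3661 CPM at day 60, with a log2 fold change of 5.42 ± 0.88 (edgeR adjusted p 0.00528). Pld3, a lysosomal nuclease, had a log2 fold change of 5.81 ± 0.92 at day 60 (edgeR adjusted p 0.00495). These lists name genes known for their part in engulfment, were chosen with results of these data known, and are described by their counts alone.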

How the data were processed

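Whole-number counts per gene, deposited by the authors in 1 table and not normalized, were used for 14 libraries of 7 groups. The submitters' processing notes name Bowtie2 2.3.4.2, HTSeq 0.6.1 and build mm9. The strand setting is not given in the sources used here. The titles give group and replicate number. In edgeR 4.0.16 (R 4.3.3) genes with low counts were removed (13861 of 14084 kept), libraries were scaled by TMM, and all libraries entered 1 quasi-likelihood fit with 1 mean for each group, with 7 residual degrees of freedom and a common biological coefficient of variation of 0.639. Adjusted p-values are Benjamini-Hochberg over all genes tested, and an adjusted p under 0.05 is a call. The procedure was tested on simulated data. Levels are CPM on TMM-scaled totals, marker sums are CPM of unscaled totals, and log2 CPM used a prior count of 2. Where a group had no count, 3 counts over its libraries served as the floor. Lengths and overlaps came from GENCODE M21. The members and lists were chosen with earlier results of these data known. All 9 members are named, and of each list up to 3 called genes with the largest change per comparison, of which some are printed. Of the likeness search, 3 genes per member whose mean log2 CPM reached 3 are named. Alternatives were DESeq2 1.42.0, limma-voom (limma 3.58.1), 2 other scalings, no filter, a replicate block, a minimum fold change of 1.5 and each library left out in turn. Fits without both day 21 or both sham libraries and the tests of neighbouring times were added after the data were seen. Twist2, Xkr4 and Rubcn of the lists were not analysed here. Libraries of a group differed beyond counting noise in a chi-square test. Of the microglia marker list, 1 gene is not reported here and is left out of the sums.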

Additional observations from a re-analysis of the deposited data

How the results depend on the processing

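The number of the 9 genes called at each time against sham was within 1.5 times the reported number under each alternative that left out no library singly: 2 to 3 at day 1, 2 to 4 at day 3, 4 to 5 at day 7, 4 to 6 at day 21 and 4 to 5 at days 60 and 90. DESeq2 and limma-voom called 2 genes in place of 1 for the later against the earlier times, and DESeq2 called 2 in the joint test. With each library left out in turn, the counts ran from 0 to 3 at day 1, 2 to 4 at day 3, 3 to 5 at day 7, 1 to 5 at day 21, 2 to 5 at day 60, 3 to 5 at day 90, 1 to 3 for the later against the earlier times and 1 to 2 in the joint test. The lowest counts at days 1, 7, 21, 60 and 90 came without a sham library. These fits have fewer samples, and the lone sham library is assumed to vary like the other groups. Directions that reversed were all of values not called. With each library left out in turn, the log2 difference between later and earlier times ran from -0.75 to 0.47 for Gas6, from -3.79 to 0.10 for Timd4 and from -0.087 to 0.33 for Elmo1, and the day 3 value of Pros1 ran from -0.84 to 2.08. The cause was not tested. Of 1056 counts of the lists under alternatives, 764 stayed within 1.5 times the reported count and 292 did not. The labels do not say what the replicate numbers stand for. Deviations of same-numbered libraries correlated positively in all 21 pairs of groups, at 0.071 to 0.677 (median 0.374). Libraries of the same number thus share a difference that the main fit does not model, and its source was not tested. With the number as a replicate block the counts of the 9 genes were the same, 2, 3, 4, 4, 4, 4, 1 and 1, while the counts of all genes rose from 631 to 1195 at day 1, 1147 to 2002 at day 3, 1751 to 2766 at day 7, 892 to 1584 at day 21, 1088 to 1953 at day 60, 1089 to 2006 at day 90, 392 to 680 for the later against the earlier times and 120 to 184 in the joint test. Upper-quartile scaling raised the median log2 fold change of all genes against sham by 0.07 to 0.22, and limma-voom moved it by -0.12 at day 21. DESeq2 called 1848, 2639, 3172, 2461, 2653 and 2599 genes in all against sham at the 6 times, and the fit without both day 21 libraries 1093, 1802, 2450, 1749 and 1796 at the other 5.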
